A study of Mus musculus with 16 samples.

Results

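The Z-disc genes described here encode 10 structural proteins of the disc that borders each sarcomere: *Actn2*, *Actn3*, *Capn3*, *Ldb3*, *Myoz1*, *Myoz2*, *Myoz3*, *Tcap*, *Myot* and *Flnc*. They were chosen by name, and each symbol matched 1 of the 41388 genes in the count table. All 10 passed the filter on low counts in every comparison. In background, the Z-disc is where thin filaments of neighbouring sarcomeres overlap and are cross-linked by alpha-actinin, and it also holds the ends of titin. Alpha-actinin has a form of fast fibres and a form of all fibres, and the myozenins, which bind alpha-actinin and the phosphatase calcineurin, exist in forms typical of fast or of slow fibres. Inherited defects in several of these genes cause limb-girdle or myofibrillar muscle disease.

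RNA was sequenced from quadriceps muscle of 16 mice on a C57BL/6 background (C57BL6J in the methods of the study), in 4 groups of 4 libraries, to ask how loss of *Mtm1* and treatment with tamoxifen alter muscle RNA. WT mice were wild type and untreated, and WT + TAM mice were wild type and treated. *Mtm1* KO mice lacked exon 4 of *Mtm1*, the gene of the phosphoinositide phosphatase myotubularin, and *Mtm1* KO + TAM mice carried the same deletion and were treated. Tamoxifen, a ligand of the estrogen receptor, was mixed into the diet at 40 mg/kg from day 21, and the labels give an age of 36 days for all groups. The supplement of the study gives an age that differs from the labels, and says that the samples came from littermates, but no label names a litter. The deletion is present from conception and in all cells, so the KO muscle differs from WT by its whole development, and the low-dose arm of the study has no library here. Totals ran from 25116179 to 29847222 counts per library, of which the 10 genes held 1.25 to 2.06%. By the column names of its supplementary table, the study used 14 libraries, without WT replicate 1 and KO replicate 12, and it gave no reason. The same 14 carry the results below, and all 16 were fitted as an alternative.

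Expression of *Mtm1* was compared with the labels before anything else. It had 369, 341 and 350 counts in WT replicates 2 to 4 and 282, 459, 345 and 329 in WT + TAM. It had 76, 63 and 76 counts in *Mtm1* KO replicates 9 to 11 and 53, 97, 93 and 92 in *Mtm1* KO + TAM. In the library labelled WT replicate 1 *Mtm1* had 74 counts, within the range of the KO libraries, and the library labelled KO replicate 12 had 85. In CPM (scaled counts, defined below) the library labelled WT replicate 1 was at 3.82, above the KO libraries, treated or not (1.77 to 3.08). The other wild-type libraries were at 12.1 to 18.5 CPM. These 2 libraries also stood apart from their groups. The median chi-square of a gene between the library labelled WT replicate 1 and its closest group mate was 17.8, and the value for KO replicate 12 was 8.82. Treated wild-type replicates 7 and 8 were the closest of all 120 pairs, with a median chi-square of 1.47, where sampling noise alone gives 0.455 and the next pair had 3.36. They differed by more than sampling noise and were kept as 2 libraries, but whether they share an animal or an extraction is not known.

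The order of the columns in both tables went with a further difference. Columns 1 to 6 held the library labelled WT replicate 1, WT + TAM replicates 5 and 6 and *Mtm1* KO + TAM replicates 13 to 15. What the order stands for is not given in the sources used here. *Mtm1* KO and WT (14 libraries) lay wholly in columns 7 to 16, whereas both treated groups were split over the 2 blocks. Tamoxifen was therefore also fitted by block, a split made after *Tcap* had been seen to differ by column, and what the blocks stand for was not tested.

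The tissue label was compared with marker genes. The 6 skeletal muscle markers summed to 70716 to 169517 CPM (counts scaled to a common library size by TMM, which sets library sizes so that most genes do not change) in the 14 libraries, with *Acta1* the most abundant. They were split by genotype without overlap, at 126202 to 169517 CPM in WT, 137474 to 146423 CPM in WT + TAM, 76100 to 88799 CPM in *Mtm1* KO and 70716 to 101890 CPM in *Mtm1* KO + TAM. The 4 smooth muscle markers, with *Acta2* the most abundant, summed to 274 to 292 CPM in WT and 192 to 222 CPM in *Mtm1* KO, and overlapped in the treated groups (232 to 272 and 191 to 255 CPM). The 2 satellite cell markers, with *Pax7* the more abundant, summed to 4.02 to 7.57 CPM in WT and 2.33 to 3.79 CPM in *Mtm1* KO, and to 5.51 to 7.87 and 1.87 to 4.80 CPM in the treated groups. The 4 fibroblast markers, with *Col3a1* the most abundant, summed to 4291 to 5053 CPM in WT and 2505 to 4006 CPM in WT + TAM, without overlap, and to 3351 to 4678 and 3406 to 4013 CPM in the untreated and treated KO. WT + TAM replicates 5 and 6 had the lowest of these sums (2825 and 2505 CPM), and their 4 fat cell markers, with *Fabp4* the most abundant, summed to 2756 and 1739 CPM, against 720 and 724 CPM in replicates 7 and 8, 267 to 1771 CPM in WT, 964 to 1727 CPM in *Mtm1* KO and 916 to 1367 CPM in *Mtm1* KO + TAM. The 3 endothelial markers, with *Pecam1* the most abundant, summed to 223 to 345 CPM in WT, 177 to 230 CPM in WT + TAM, 180 to 272 CPM in *Mtm1* KO and 138 to 224 CPM in *Mtm1* KO + TAM. Of the 5 heart muscle markers, *Myl7* was at 0 counts in 13 of the 14 libraries and *Nppa* in 10, and the most abundant was *Myl2*, which slow skeletal fibres also express. The leukocyte markers, 3 of 4 matched in the table with *Lyz2* the most abundant, summed to 78.5, 74.9 and 68.7 CPM in WT and 92.3, 33.1, 77.0 and 78.4 CPM in WT + TAM. Their sums were 98.6, 122 and 119 CPM in *Mtm1* KO and 110, 103, 166 and 96.2 CPM in *Mtm1* KO + TAM, higher than in the untreated or treated wild type, and the part of all these markers in the results below was not tested. Fewer fibres of a type and less RNA per fibre cannot be told apart in whole muscle.

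Levels of different genes were compared per length, as RPKM (reads scaled to gene length and library size) deposited by the authors. In WT, *Actn3* stood highest at 3180 ± 520 RPKM (SD, n = 3), followed by *Myoz1* at 1663 ± 95.1 and *Tcap* at 1551 ± 322. The last 2 did not differ beyond their spread. A middle tier held *Myot* at 389 ± 38.8, *Ldb3* at 320 ± 32.7 and *Actn2* at 162 ± 77.2 RPKM. *Myoz3* at 47.7 ± 9.54, *Flnc* at 42.4 ± 3.88, *Capn3* at 25.0 ± 3.06 and *Myoz2* at 13.4 ± 11.5 RPKM formed the lowest tier, in which *Myoz3* and *Flnc* overlapped, as did *Capn3* and *Myoz2*. In *Mtm1* KO the order differed at the top, with *Tcap* at 2291 ± 489 RPKM above *Actn3* at 1548 ± 278 and *Myoz1* at 1384 ± 186 (SD, n = 3), and the last 2 overlapped. *Actn2* at 433 ± 74.7 RPKM then lay at the level of *Myot* (375 ± 69.6) and *Ldb3* (309 ± 50), and the low tier ran *Flnc* 92.8 ± 6.23, *Myoz2* 56.7 ± 14.9, *Myoz3* 24.7 ± 10.6 and *Capn3* 16.2 ± 1.39. The order in treated KO muscle was *Tcap*, *Actn3*, *Myoz1*, *Actn2*, *Myot*, *Ldb3*, *Flnc*, *Myoz2*, *Myoz3*, *Capn3*.

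**Figure D1:**
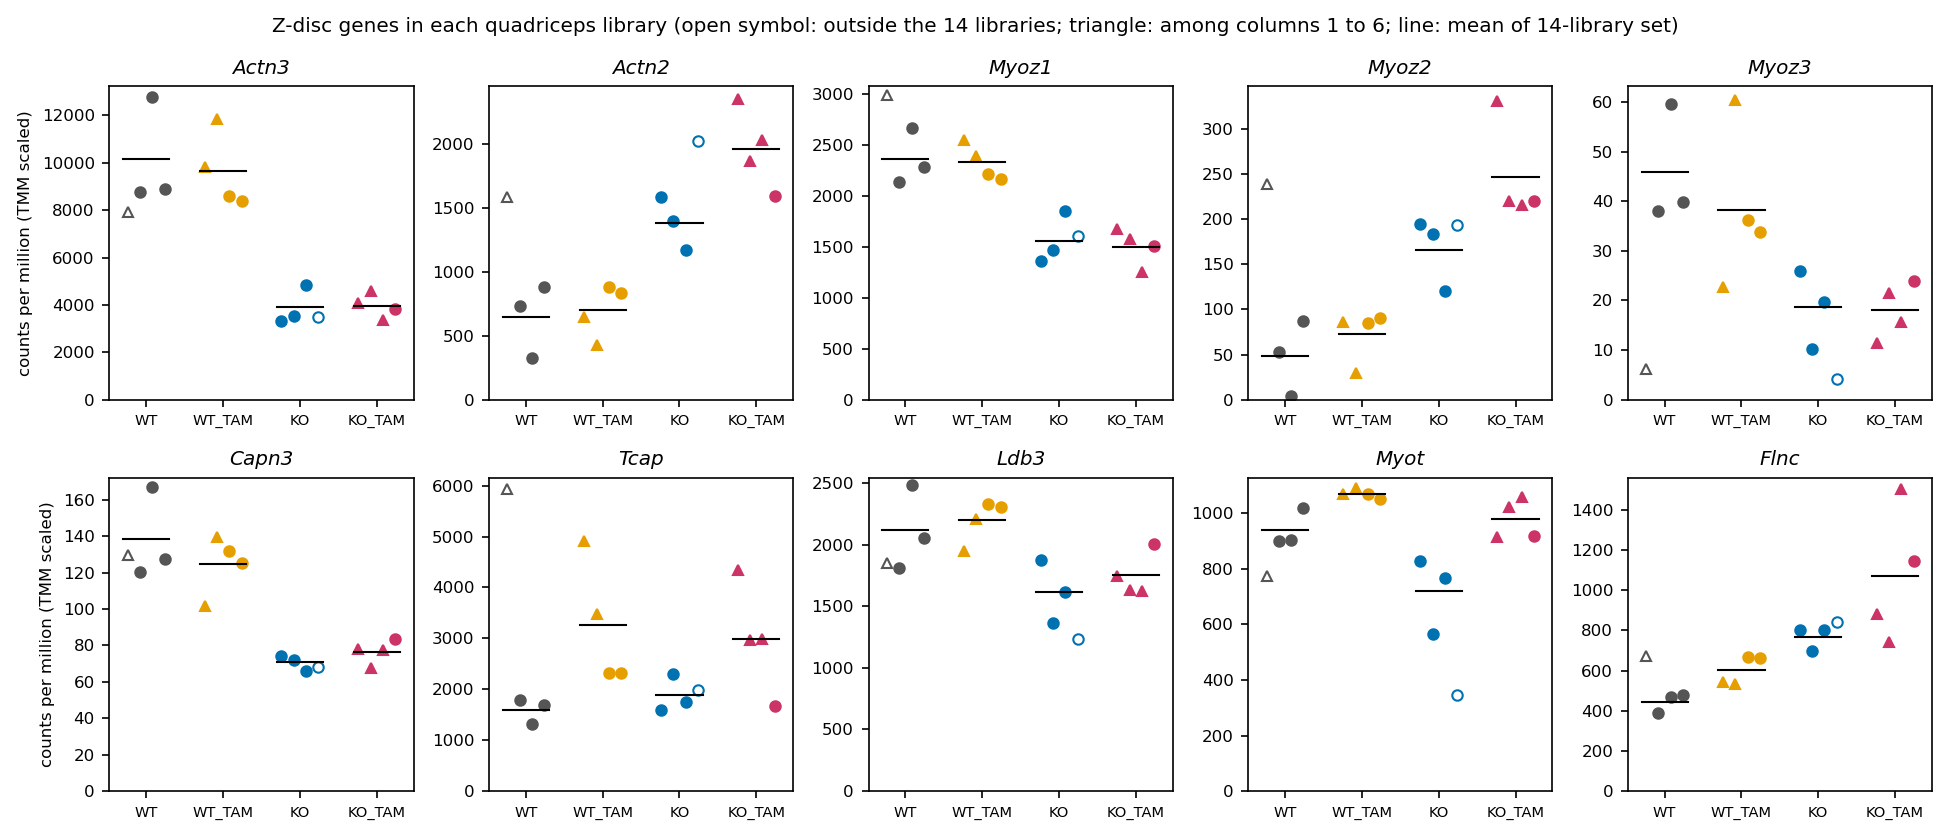
Each panel shows 1 of the 10 Z-disc genes in CPM after TMM scaling (vertical axes, from 0) in every library of the 4 groups, with a line at the mean of the 14-library set. Open symbols mark KO replicate 12 and the library labelled WT replicate 1, triangles are libraries in columns 1 to 6 of the tables; *Actn3* and *Capn3* sit lower and *Actn2* and *Myoz2* higher in the 7 KO libraries of the set, and all 6 triangles for *Tcap* lie above the circles.

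Loss of *Mtm1* went with lower levels of *Actn3*, of the fast-fibre alpha-actinin, and of *Capn3*, and with a higher level of *Flnc*, of filamin C. In *Mtm1* KO compared with WT (n = 3 per group), 3 of the 10 genes were called, against 3.6% of the 14740 genes tested. A gene counts as called where its p from the quasi-likelihood test of edgeR, adjusted by Benjamini-Hochberg for every gene tested, does not exceed 0.01. *Actn3* and *Capn3* fell, and *Flnc* rose. Each of these calls was lost in some settings, given with each gene below, and that of *Flnc* also with all 16 libraries. At an adjusted p of 0.05 the count was 5 of 10 against 12.8% of all genes, and the groups did not overlap for 8 of 10 against 36.4%. The median log2 fold change of the 10 genes was -0.36, beside 0.02 for all genes tested.

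The same contrast in treated mice, *Mtm1* KO + TAM (n = 4) against WT + TAM (n = 4), used none of the libraries of the untreated contrast. Of the 10 genes, 5 were called, against 6.72% of 14563 genes tested: *Actn3*, *Capn3* and *Myoz1* fell, and *Actn2* and *Myoz2* rose. At an adjusted p of 0.05 the count was 7 of 10 against 17% of all genes, and the groups did not overlap for 6 of 10 against 22.5%. The median of the 10 genes was -0.23, beside -0.01 for all genes tested. *Actn3* and *Capn3* were thus called in both contrasts.

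*Actn3* encodes the alpha-actinin of fast glycolytic fibres (ENSMUSG00000006457, chr19:4861216-4877909, minus strand; GRCm38, annotation GENCODE M21). It stood at 8781, 12773 and 8908 CPM in WT and at 9836, 11863, 8613 and 8386 CPM in WT + TAM. *Mtm1* KO libraries had 3319, 3542 and 4839 CPM, and in *Mtm1* KO + TAM at 4085, 4598, 3361 and 3834 CPM. Every KO library was below every wild-type library, and *Mtm1* KO replicate 11 was the highest of the KO libraries. On the log2 scale the difference was -1.36 (standard error 0.22, adjusted p = 0.00690) in *Mtm1* KO against WT and -1.28 (standard error 0.16, adjusted p = 7.37e-04) in the treated contrast. The call in the untreated contrast was lost without any of WT replicates 2 to 4 or KO replicates 9 and 10, with adjusted p from 0.0139 to 0.0328, and with limma on RPKM, whereas all alternatives kept the call in the treated contrast. All 16 libraries gave -1.31 (adjusted p = 0.00872).

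*Actn2* encodes the alpha-actinin present in all fibres (ENSMUSG00000052374, chr13:12269426-12340760, minus strand). It stood at 729, 324 and 884 CPM in WT and at 649, 430, 883 and 833 CPM in WT + TAM. Values in *Mtm1* KO were 1583, 1400 and 1170 CPM, and in *Mtm1* KO + TAM at 2354, 1868, 2033 and 1591 CPM. The groups did not overlap in either contrast, and WT replicate 3 and WT + TAM replicate 6 were the lowest in their groups. Its log2 fold change was 1.13 (standard error 0.32, adjusted p = 0.0498) without tamoxifen, which did not pass, and 1.49 (standard error 0.22, adjusted p = 0.00139) with it. DESeq2 called the untreated difference too (1.11, adjusted p = 0.00117). So did edgeR's exact test (adjusted p = 0.00917) and its quasi-likelihood test without the filter on low counts (0.00684). With all 16 libraries edgeR gave 0.83 (adjusted p = 0.279), where the library labelled WT replicate 1 stood at 1586 CPM.

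The balance between the paralogs was described per library from the RPKM, with no test. *Actn3* made up 93.9, 98.1 and 92.8% of the summed alpha-actinin RPKM in WT and 95.1, 97.2, 92.6 and 92.8% in WT + TAM. It made up 72.8, 76.4 and 84.1% in *Mtm1* KO and 68.9, 75.9, 67.8 and 75.5% in *Mtm1* KO + TAM. The share was lower in every KO library than in every wild-type library, and the 2 KO groups overlapped. The libraries left out by the study were at 86.5% (labelled WT replicate 1) and 68.7% (KO replicate 12). The ratio of *Actn3* to *Actn2* ran from 12.9 to 50.4 in WT and from 2.68 to 5.28 in *Mtm1* KO. The coding sequences of *Actn2* and *Actn3* are identical at 75.7% of aligned bases, but the genes share only 0.05% and 0.07% of their 50-base exon stretches, so little of either count can come from the other gene by shared sequence.

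**Figure D2:**
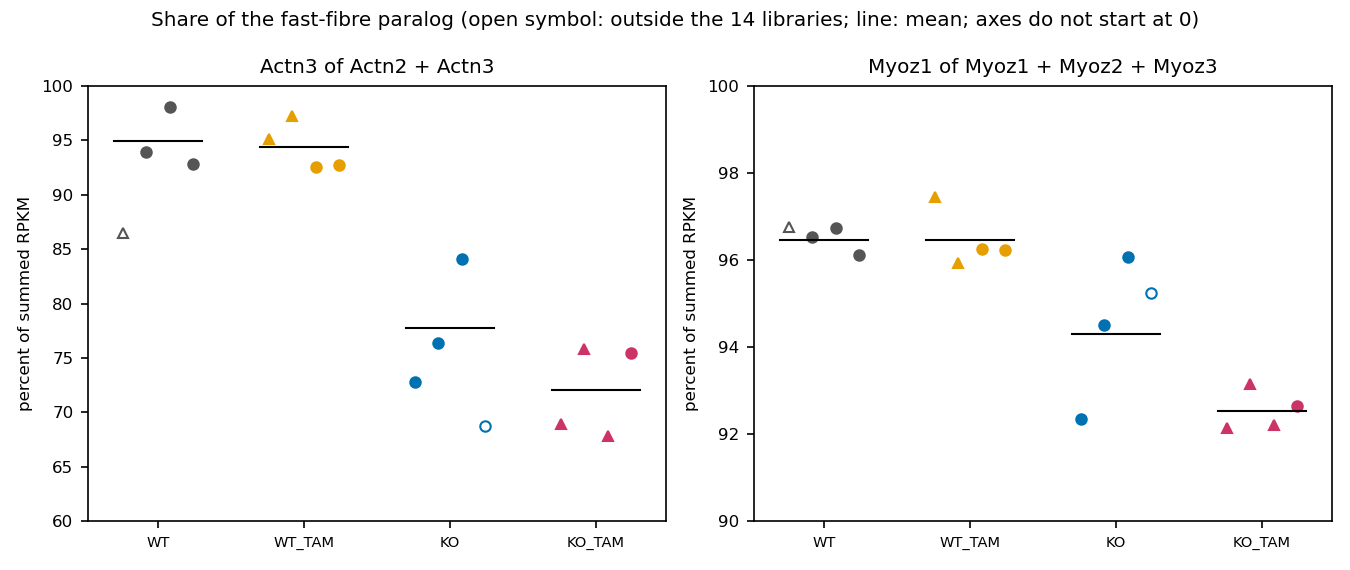
The share of the fast-fibre gene in the summed RPKM of its family (percent, vertical axes cut above 0) is plotted for every library, *Actn3* among the sarcomeric alpha-actinins at left and *Myoz1* among the 3 myozenins at right. Lines are means of the 14-library set and open symbols the 2 other libraries; for alpha-actinin the 7 KO libraries of the set (67.8 to 84.1%) lie below the 7 wild-type ones (92.6 to 98.1%).

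The myozenins, also called calsarcins, tie calcineurin to alpha-actinin. *Myoz1* is the main form of fast fibres (ENSMUSG00000068697, chr14:20649107-20656540, minus strand). It stood at 2140, 2669 and 2287 CPM in WT and at 2544, 2391, 2210 and 2169 CPM in WT + TAM. In *Mtm1* KO it stood at 1362, 1464 and 1847 CPM, and in *Mtm1* KO + TAM at 1679, 1576, 1248 and 1507 CPM. All 7 KO libraries were below the 7 wild-type libraries. The log2 fold change was -0.58 (standard error 0.17, adjusted p = 0.0555) in the untreated contrast, which did not pass in edgeR's quasi-likelihood test but did in DESeq2 (-0.59, adjusted p = 0.00384), and -0.63 (standard error 0.13, adjusted p = 0.00823) in the treated contrast. The treated call was narrow: without any of the 8 libraries in turn the adjusted p ran from 0.0115 to 0.0220, and the call was also lost by library size, with limma, within columns 1 to 6 and with WT + TAM replicates 7 and 8 summed (0.0206).

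*Myoz2*, the form of slow fibres and heart (ENSMUSG00000028116, chr3:123006206-123035015, minus strand), varied most. It stood at 53.3, 4.40 and 87.6 CPM in WT and at 86.1, 29.8, 85.1 and 90.3 CPM in WT + TAM. *Mtm1* KO libraries had 195, 184 and 121 CPM, and in *Mtm1* KO + TAM at 332, 221, 216 and 221 CPM. WT replicate 3 and WT + TAM replicate 6 were far below their groups, *Mtm1* KO + TAM replicate 13 was above its group, and no KO library of the set reached the range of the 7 wild-type ones. On the log2 scale the difference was 1.81 (standard error 0.75, adjusted p = 0.142) in the untreated contrast, which did not pass, and 1.77 (standard error 0.30, adjusted p = 0.00307) in the treated contrast. The treated call was lost in 1 fit of all 4 groups (adjusted p = 0.0368), with the column block as a term (0.0466) and within columns 1 to 6 (0.0116). The library labelled WT replicate 1 held 239 CPM of *Myoz2*, above all 3 KO libraries of the set, and with all 16 libraries the untreated value was 0.87 (adjusted p = 0.578).

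*Myoz3*, another fast-fibre form (ENSMUSG00000049173), stood at 38.1, 59.6 and 39.8 CPM in WT and at 22.6, 60.5, 36.2 and 33.8 CPM in WT + TAM. Values in *Mtm1* KO were 26.0, 10.3 and 19.8 CPM, and in *Mtm1* KO + TAM at 11.5, 21.5, 15.6 and 24 CPM. The untreated groups did not overlap, while *Mtm1* KO + TAM replicate 16 lay above WT + TAM replicate 5. Its log2 fold change was -1.27 (standard error 0.31, adjusted p = 0.0303) without tamoxifen and -1.07 (standard error 0.29, adjusted p = 0.0270) with it. Neither passed in edgeR's quasi-likelihood test with the filter on low counts, and both did in DESeq2 (adjusted p = 2.61e-04 and 0.00209). Both differences also passed in the quasi-likelihood test without the filter and in edgeR's exact test (adjusted p = 0.00265 and 0.00205 for the untreated difference). The 2 left-out libraries were the lowest of all 16, at 6.19 CPM (labelled WT replicate 1) and 4.06 CPM (KO replicate 12).

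*Myoz1* made up 96.5, 96.7 and 96.1% of the summed myozenin RPKM in WT and 97.5, 95.9, 96.2 and 96.2% in WT + TAM. It made up 92.3, 94.5 and 96.1% in *Mtm1* KO and 92.1, 93.1, 92.2 and 92.6% in *Mtm1* KO + TAM. The treated groups did not overlap, whereas *Mtm1* KO replicate 11 nearly reached the lowest WT library. The share was at least 92.1% in each of the 14 libraries. *Myoz1* exceeded *Myoz2* at least 13.3 times per length there. The ratio ran from 68.5 to 1592 in WT and from 18.4 to 40.1 in *Mtm1* KO.

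Slow-fibre genes were summed beside *Myoz2* and *Actn2*. The 11 slow-fibre genes, with *Mybpc1* the most abundant, summed to 1936, 906 and 2362 CPM in WT and to 2203, 1448, 2370 and 2309 CPM in WT + TAM. They summed to 2910, 3138 and 2084 CPM in *Mtm1* KO and to 3655, 2865, 2838 and 3107 CPM in *Mtm1* KO + TAM. WT replicate 3 and WT + TAM replicate 6 were the lowest of their groups here as well. The slow myosin gene *Myh7* was at 1.23 CPM in WT replicate 3, against 88.4 and 131 CPM in the other WT libraries, and at 3.46 CPM in WT + TAM replicate 6, against 29.2 to 87.8 CPM. The library labelled WT replicate 1 summed to 5903 CPM, the highest of all 16. How much of the slow part of the quadriceps each sample held is not given in the sources used here, and its part in the values of *Actn2* and *Myoz2* was not tested.

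*Capn3* encodes the muscle calpain, a protease held by titin (ENSMUSG00000079110, chr2:120456019-120504913, plus strand). It stood at 120, 167 and 127 CPM in WT and at 102, 140, 132 and 125 CPM in WT + TAM. In *Mtm1* KO it stood at 74.0, 72 and 66.0 CPM, and in *Mtm1* KO + TAM at 78.2, 67.9, 77.2 and 83.3 CPM. No KO library reached the lowest wild-type library, and the 2 left-out libraries followed their labels at 130 and 67.9 CPM. The log2 fold change was -0.94 (standard error 0.15, adjusted p = 0.00614) in the untreated contrast and -0.70 (standard error 0.12, adjusted p = 0.00344) in the treated contrast. Without any of the 6 untreated libraries in turn the untreated call was lost, with adjusted p from 0.0111 to 0.0266, and the treated call was lost without WT + TAM replicates 7 or 8 or *Mtm1* KO + TAM replicates 13 to 15 (0.0109 to 0.0143). Scaled by library size alone neither passed, at -0.62 (adjusted p = 0.0125) and -0.42 (adjusted p = 0.0299), nor did they with limma. The treated call was also lost with WT + TAM replicates 7 and 8 summed (adjusted p = 0.0117). The neighbouring gene *Ganc* shares 6.32% of the 50-base exon stretches of *Capn3*, so the count is uncertain by that part.

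*Tcap* encodes telethonin, which caps the ends of titin (ENSMUSG00000007877, chr11:98383811-98384953, plus strand). It stood at 1793, 1317 and 1689 CPM in WT and at 4916, 3481, 2324 and 2314 CPM in WT + TAM. *Mtm1* KO libraries had 1590, 2304 and 1751 CPM, and in *Mtm1* KO + TAM at 4352, 2958, 2986 and 1678 CPM. The spread within the treated groups was wide: the high libraries were those in columns 1 to 6 (2958 to 5930 CPM, with the library labelled WT replicate 1 the highest), and all 10 others lay between 1317 and 2324 CPM. On the log2 scale the difference was 0.26 (standard error 0.19, adjusted p = 0.402) in the untreated contrast and -0.12 (standard error 0.30, adjusted p = 0.817) in the treated contrast, and neither passed. The treated value turned to 0.16 by library size scaling alone, and the untreated value to -0.48 with all 16 libraries.

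*Ldb3* encodes the PDZ-LIM protein ZASP, which binds alpha-actinin (ENSMUSG00000021798, chr14:34526603-34588682, minus strand). It stood at 1813, 2481 and 2054 CPM in WT and at 1949, 2211, 2327 and 2302 CPM in WT + TAM. Values in *Mtm1* KO were 1871, 1361 and 1612 CPM, and in *Mtm1* KO + TAM at 1748, 1632, 1621 and 2003 CPM. The groups overlapped in both contrasts. Its log2 fold change was -0.37 (standard error 0.18, adjusted p = 0.209) without tamoxifen and -0.32 (standard error 0.13, adjusted p = 0.0991) with it.

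*Myot* encodes myotilin, which binds actin, alpha-actinin and filamin C (ENSMUSG00000024471). It stood at 898, 905 and 1018 CPM in WT and at 1068, 1091, 1068 and 1053 CPM in WT + TAM. In *Mtm1* KO it stood at 827, 565 and 769 CPM, and in *Mtm1* KO + TAM at 915, 1023, 1057 and 917 CPM. The untreated groups did not overlap and the treated groups did. The log2 fold change was -0.36 (standard error 0.17, adjusted p = 0.185) without tamoxifen and -0.13 (standard error 0.11, adjusted p = 0.450) with it, where it turned to 0.16 by library size scaling alone. KO replicate 12, left out by the study, was the lowest of all 16 at 344 CPM.

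*Flnc* encodes filamin C, an actin cross-linker that links the Z-disc to the membrane and gathers at damaged sarcomeres (ENSMUSG00000068699, chr6:29433256-29461883, plus strand). It stood at 388, 467 and 478 CPM in WT and at 545, 531, 670 and 662 CPM in WT + TAM. *Mtm1* KO libraries had 803, 700 and 802 CPM, and in *Mtm1* KO + TAM at 884, 742, 1506 and 1144 CPM. Every KO library was above every wild-type library, and *Mtm1* KO + TAM replicate 15 was the highest. On the log2 scale the difference was 0.81 (standard error 0.14, adjusted p = 0.00862) in the untreated contrast and 0.83 (standard error 0.20, adjusted p = 0.0175) in the treated contrast, which did not pass. The untreated call was lost without any of the 6 libraries in turn (adjusted p from 0.0144 to 0.0384) and with all 16 libraries (0.67, adjusted p = 0.0801). It was lost as well in 1 fit of all 4 groups (0.79, adjusted p = 0.0192) and with the column block as a term (0.79, adjusted p = 0.0175), whereas the treated difference was called by DESeq2 (0.84, adjusted p = 6.37e-04), the exact test, library size scaling, limma on either scale, without filter, in 1 fit of all 4 groups, with the block as a term and without *Mtm1* KO + TAM replicate 14.

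**Figure D3:**
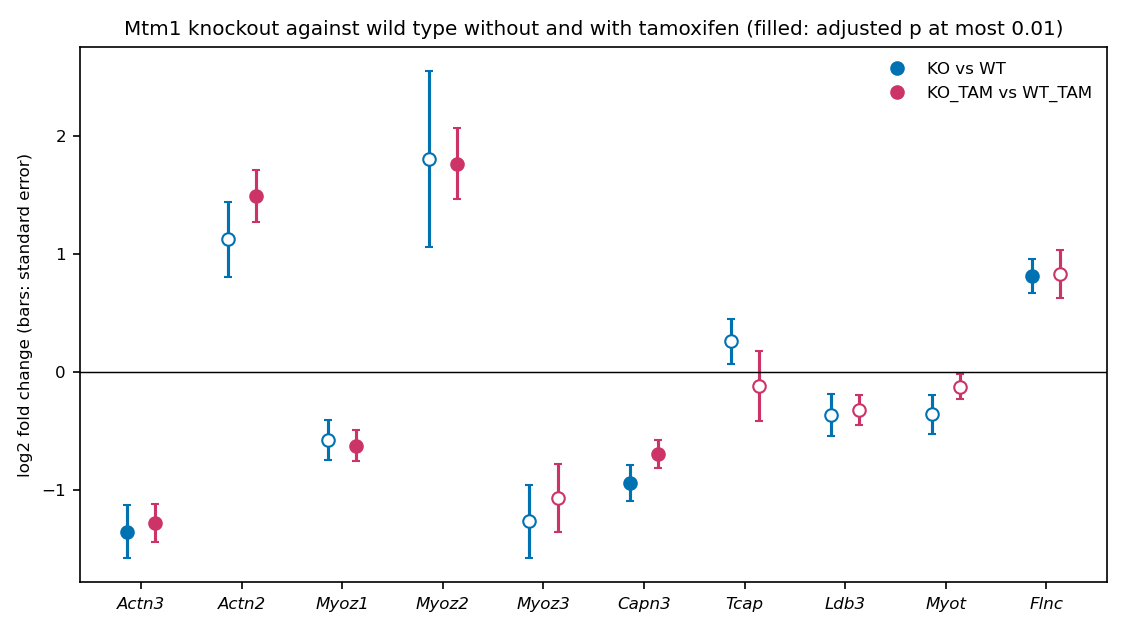
Log2 fold changes of the 10 Z-disc genes (vertical axis, bars are standard errors) are plotted for *Mtm1* KO against WT (n = 3 and 3) and for *Mtm1* KO + TAM against WT + TAM (n = 4 and 4), with filled points where the adjusted p was 0.01 or less. *Actn3*, *Capn3*, *Myoz1*, *Myoz3*, *Ldb3* and *Myot* lie below 0 and *Actn2*, *Myoz2* and *Flnc* above 0 in both contrasts.

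Scaling mattered for these sizes. The share of counts in the top 10 genes was 23.6 to 27.6% in the 7 wild-type libraries of the set and 15 to 19.0% in the 7 KO libraries. Scaled by library size alone, the median gene of all those tested stood at 0.33 in the untreated and 0.27 in the treated contrast, so the values above are relative to the median gene. In that setting the split of all called genes moved from 282 higher and 249 lower to 1023 higher and 140 lower in the untreated contrast. *Actn3* and *Flnc* were still called in the untreated contrast, and *Capn3* was not. In the treated contrast the split moved from 498 higher and 481 lower to 1657 higher and 217 lower.

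Both untreated and treated contrasts changed with the libraries used. With all 16 libraries, 2 of the 10 genes (*Actn3* and *Capn3*) were called in *Mtm1* KO against WT, against 1.44% of 14625 genes tested. Within columns 1 to 6, *Mtm1* KO + TAM (n = 3) against WT + TAM (n = 2) called 2 of the 10 (and 260 higher and 238 lower of 15173 genes), *Actn3* (-1.43, adjusted p = 0.00683) and *Actn2* (1.95, adjusted p = 0.00238). Within columns 7 to 16, *Mtm1* KO + TAM replicate 16 against WT + TAM replicates 7 and 8 called all 10, against 20.4% of 15192 genes. That fit takes its spread from the closest pair of libraries alone and assumes that the lone KO library varies as little. The log2 fold changes were -1.13 for *Actn3*, 0.90 for *Actn2* and 1.35 for *Myoz2* there.

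By edgeR, tamoxifen changed none of the 10 genes past the threshold in either genotype. In *Mtm1* KO + TAM (n = 4) against *Mtm1* KO (n = 3), 0 of the 10 were called by edgeR's quasi-likelihood test, against 0% of 15062 genes at an adjusted p of 0.01 and 0% at 0.05. DESeq2 called 0 of the 10, and 42 higher and 30 lower of all genes. An unadjusted p below 0.05 was reached by 4 of the 10, and by 1137 of the 15062 genes, and the groups did not overlap for 3 of 10 against 7.69% of all genes. *Tcap* differed by 0.66 (standard error 0.28, adjusted p = 0.616), *Myoz2* by 0.56 (standard error 0.21, adjusted p = 0.522), *Actn2* by 0.49 (standard error 0.18, adjusted p = 0.524) and *Myot* by 0.43 (standard error 0.16, adjusted p = 0.536). The treated KO libraries of *Actn2*, *Myoz2* and *Myot* lay above all untreated KO libraries of the set. The other members were *Flnc* at 0.46, *Ldb3* at 0.10, *Capn3* at 0.10, *Actn3* at 0.01, *Myoz3* at -0.06 and *Myoz1* at -0.06, with adjusted p from 0.690 to 0.996.

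*Tcap* in treated KO muscle was looked at by column. *Mtm1* KO + TAM replicate 16, the only one of its group in columns 7 to 16, had 1678 CPM and lay within the *Mtm1* KO range of 1590 to 2304 CPM. With the block as a term of the fit the log2 fold change of *Tcap* was -0.09 (standard error 0.23, adjusted p = 0.980), and those of *Myot* and *Actn2* were 0.39 and 0.70. The block was chosen by the values of *Tcap*, so the fit restates their split and is no separate test of it.

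In WT + TAM (n = 4) against WT (n = 3), 0 of the 10 were called by edgeR's quasi-likelihood test, against 0.131% of 14544 genes at an adjusted p of 0.01 and 0.55% at 0.05. DESeq2 called 1 of the 10, *Tcap*, and 110 higher and 104 lower of all genes. An unadjusted p below 0.05 was reached by 2 of the 10, and by 1549 of the 14544 genes, and the groups did not overlap for 3 of 10 against 11.5% of all genes. *Tcap* differed by 1.02 (standard error 0.27, adjusted p = 0.185), and by 1.03 in DESeq2 (adjusted p = 0.00329). All 4 treated wild-type libraries held more *Tcap* than the 3 WT libraries, including replicates 7 and 8 of columns 7 to 16. Within columns 7 to 16 the difference was 0.53 (standard error 0.16, adjusted p = 0.278), and with all 16 libraries it was 0.29 (adjusted p = 0.870). *Flnc* differed by 0.44 (standard error 0.13, adjusted p = 0.261) and *Myot* by 0.18 (standard error 0.11, adjusted p = 0.588), also without overlap. The others were *Myoz2* at 0.58, *Actn2* at 0.11, *Ldb3* at 0.05, *Myoz1* at -0.02, *Actn3* at -0.07, *Capn3* at -0.15 and *Myoz3* at -0.26, with adjusted p from 0.758 to 0.972.

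Of 11 clock genes, listed after values had been seen, *Per3* and *Arntl* were picked for their difference between the column blocks in the treated groups. *Per3* was at 42.9 and 52.8 CPM in WT + TAM replicates 5 and 6 and at 16.2 and 14.6 CPM in replicates 7 and 8. It was at 27.1, 35.9 and 26.9 CPM in *Mtm1* KO + TAM replicates 13 to 15 and at 14.8 CPM in replicate 16. *Arntl*, whose protein drives the *Per* genes, was lower where *Per3* was higher, at 3.92 and 2.61 CPM in WT + TAM replicates 5 and 6 against 17.5 and 16.2 CPM in replicates 7 and 8. In *Mtm1* KO + TAM it was at 2.16, 6.64 and 4.07 CPM in replicates 13 to 15 and at 10 CPM in replicate 16. The whole clock list, with *Tef* the most abundant, summed to 974 and 1217 against 788 and 781 CPM in WT + TAM, and to 735, 767 and 673 against 656 CPM in *Mtm1* KO + TAM. The untreated libraries of the set, all in columns 7 to 16, summed to 637, 769 and 561 CPM in WT and 647, 608 and 579 CPM in *Mtm1* KO, so that WT replicate 3 was above the 3 KO libraries of columns 1 to 6. The library labelled WT replicate 1 did not share this, with *Per3* at 6.76 CPM, although its *Tcap* was the highest of all. The hour of collection is not given in the sources used here, and the part of the column order in the values of *Tcap* was not tested.

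Whether tamoxifen acted differently on KO and wild-type muscle was tested as an interaction, in 1 fit of the 4 groups. None of the 10 genes was called by edgeR's quasi-likelihood test, against 0% of 15556 genes at 0.01 and 0% at 0.05, 664 of which had an unadjusted p below 0.05, as did 0 of the 10. DESeq2 called 8 higher and 4 lower of all genes and 0 of the 10. The values ran from -0.35 for *Tcap* (standard error 0.42) to 0.39 for *Actn2* (standard error 0.40), and their adjusted p was 1.00 in each case. With *Capn3* at 0.27, *Myot* at 0.26 and *Myoz3* at 0.22 between them, the other genes lay between -0.03 and 0.10.

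*Mtm1* KO + TAM (n = 4) against WT (n = 3) shares its libraries with the contrasts above, so its values stand beside theirs. Of the 10 genes, 5 were called, against 7.7% of 14942 genes tested, and 8 at an adjusted p of 0.05, against 20%. The groups did not overlap for 7 of 10, against 31.3%. *Actn2* was at 1.60 (adjusted p = 0.00488) and *Flnc* at 1.27 (adjusted p = 0.00417), and both rose. *Actn3* was at -1.35 (adjusted p = 0.00141), *Myoz3* at -1.34 (adjusted p = 0.00407) and *Capn3* at -0.85 (adjusted p = 0.00240), and these 3 fell. The call of *Actn2* was lost without WT replicate 2 or *Mtm1* KO + TAM replicates 13, 14 or 15 (adjusted p from 0.0112 to 0.0148) and that of *Flnc* without any of WT replicates 2 to 4 (0.0113 to 0.0191). That of *Myoz3* was lost without WT replicate 3 or *Mtm1* KO + TAM replicate 15, in 1 fit of all 4 groups, with limma and with the block as a term, and that of *Capn3* with limma and with the block as a term. Not called by edgeR's quasi-likelihood test, with the filter on low counts and no library left out, were *Myoz2* (2.35), *Tcap* (0.90), *Myot* (0.06), *Ldb3* (-0.27) and *Myoz1* (-0.65). The same test called *Myoz2*, *Tcap* and *Myoz1* as well without the filter (4 members higher and 4 lower). Without *Mtm1* KO + TAM replicate 16 it called 3 members higher and 3 lower. Of the 5 genes not called, DESeq2 called *Tcap* (adjusted p = 0.00194) and *Myoz1* (7.65e-05), the exact test *Myoz2* and *Myoz1*, and library size scaling *Tcap*. With all 16 libraries 2 of the 10 were called, *Actn3* (-1.28) and *Capn3* (-0.83), against 2.03% of 14647 genes, and within columns 7 to 16, with a lone treated library, 0 were by edgeR's quasi-likelihood test (6 below an unadjusted p of 0.05).

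The 10 genes were set beside other genes of the Z-disc and of fibre type, in lists written from what the genes are known for. The counts of each list stand beside the share of all genes tested. That share was 3.6% in the untreated contrast (1.44% with all 16 libraries) and 6.72% in the treated contrast, by edgeR's quasi-likelihood test. In the untreated contrast DESeq2 called 767 higher and 911 lower of the 14740 genes tested, and edgeR's exact test 733 and 715. An unadjusted p below 0.05 was reached there by 4431 genes in the quasi-likelihood test, and by 3075 of 14625 with all 16 libraries. The DESeq2 counts over all genes in the treated contrast are given further below. Of 13 further core genes (other actinins and filamins, titin, nebulin, capping proteins), 0 were called higher and 1 lower in the untreated contrast, where *Capza2*, of the capping protein at the barbed end of actin, fell by 0.92 on the log2 scale (adjusted p = 0.00949), a call lost without any of the 6 libraries in turn. *Capza2* was at -0.59 (adjusted p = 0.00749) in the treated contrast. The median of the list was -0.24 in the untreated contrast. With all 16 libraries 0 of the 13 were called without tamoxifen by edgeR's quasi-likelihood test, with 6 below an unadjusted p of 0.05, and DESeq2 called 4 in the 14 libraries.

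Signalling and stretch-response proteins of the Z-disc were listed too. Of 17 PDZ-LIM, LIM and ankyrin genes, 3 were called higher and 1 lower in the untreated contrast and 7 higher and 1 lower in the treated contrast, with medians of 0.85 and 0.87. *Ankrd1*, a stretch-induced ankyrin protein bound to titin, rose from 9.84 to 173 mean CPM (log2 fold change 4.16, adjusted p = 2.14e-04) and, in the treated contrast, from 23.4 to 379 mean CPM (4.02, adjusted p = 4.74e-05). *Fhl2* was at 1.81 and 2.33. *Lmcd1* was at 1.36 in the untreated contrast, and *Csrp3*, the muscle LIM protein, was at 2.99 and *Ankrd2* at 2.62 in the treated contrast. *Ankrd23* fell by 1.99 without tamoxifen, and *Pdlim7* fell by 0.94 with it. In the untreated contrast of all 16 libraries 2 were called higher and 1 lower, with a median of 0.46. Leaving out WT replicate 2 or KO replicate 9 gave 1 and 1, WT replicate 4 gave 2 and 0, and KO replicate 11 gave 1 and 0.

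Chaperones and repair proteins of the Z-disc, a list of 16, were called 6 times higher and 0 times lower in each contrast, with medians of 0.43 and 0.56. The small heat shock gene *Hspb7*, whose protein binds filamin C, was at 2.69 (adjusted p = 0.00606) without and 2.44 (adjusted p = 2.31e-04) with tamoxifen. *Cryab*, of the alpha-B-crystallin that protects desmin, was at 1.57 and 1.40. *Xirp1*, an actin-binding partner of filamin C, was at 1.21 and 1.70, and *Hspb1* at 1.27 and 1.42. *Hspb8*, of a chaperone that works with BAG3, was at 1.40 in the treated contrast. With all 16 libraries 0 of the 16 were called in the untreated contrast by edgeR's quasi-likelihood test, where 10 had an unadjusted p below 0.05, and DESeq2 called 8 higher and 2 lower in the 14 libraries. With a library left out, 3 to 5 were called higher there.

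Calcineurin and its partners, which the myozenins bind, held 1 gene called higher and 1 lower of 10 in each contrast. *Nfatc2* was at 0.81 and *Prkca* at -1.03 in the untreated contrast. By the same test 1 gene was called, lower, without WT replicate 2, none without any other of the 6 libraries (7 to 9 of the 10 below an unadjusted p of 0.05), and 1, higher, with all 16 libraries, while DESeq2 called 1 higher and 4 lower in the 14. In the treated contrast *Rcan1*, an inhibitor of calcineurin that its own activity induces, was at 1.98 (adjusted p = 1.54e-04), and the catalytic subunit *Ppp3cb* was at -0.73, a call lost without WT + TAM replicates 6, 7 or 8 or *Mtm1* KO + TAM replicates 13, 14 or 15. The medians were -0.41 and -0.21. Of 6 other genes of the calpain system (calpains, their small subunit and the inhibitor calpastatin), 0 were called in either contrast by edgeR's quasi-likelihood test, with 3 and 4 below an unadjusted p of 0.05, and DESeq2 called 3 and 2. In the untreated contrast edgeR's exact test called 1 higher and 2 lower, and its quasi-likelihood test 1 higher and 1 lower without filter. The latter test called 1 higher by library size, in 1 fit of all 4 groups, with the block as a term and without KO replicate 9. In the treated contrast it called 1 higher in 1 fit of all 4 groups and without *Mtm1* KO + TAM replicate 16, and 2 by library size. The small subunit *Capns1* had the lowest p, at 0.70 (adjusted p = 0.0114) and 0.56 (adjusted p = 0.0191).

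Among 13 other fast-fibre genes, 0 were called higher and 2 lower without tamoxifen and 0 higher and 6 lower with it, with medians of -0.81 and -0.72. These counts depend on the method: without tamoxifen DESeq2 called 0 higher and 11 lower, the exact test of edgeR 0 and 9, and limma on either scale 0 and 0, with 6 below an unadjusted p of 0.05. By limma, 6165 (RPKM + 0.1) or 6159 (RPKM + 1) of all 14740 genes were below that p. With all 16 libraries 1 was called lower. With a library left out, 1 was called lower without WT replicate 3 and none without any of the others (11 or 12 below an unadjusted p of 0.05). *Mybpc2*, of fast myosin-binding protein C, was at -1.51 and -1.28, and *Tpm1* was at -1.23 in the untreated contrast. In the treated contrast *Mylk2* was at -1.32, the fast myosin gene *Myh4* at -1.24 and *Pvalb* at -1.004. Among 11 slow-fibre genes, 0 were called without tamoxifen by edgeR's quasi-likelihood test (3 below an unadjusted p of 0.05, as were 4431 of all 14740 genes, and 0 called by DESeq2). *Atp2a2* had the lowest p, at 0.74 (adjusted p = 0.0653). With tamoxifen 2 were called higher and 0 lower, *Tnni1* (2.81) and *Atp2a2* (1.05), and the medians were 1.01 and 1.05. The untreated median was 0.52 without WT replicate 3, 1.43 without WT replicate 4, and 0.17 with all 16 libraries, where 6 genes were above 0 and 5 below. Of 7 embryonic and neonatal genes, 5 were called higher and 1 lower without and 5 higher and 0 lower with tamoxifen. *Myh3*, of embryonic myosin, was at 3.89 and 3.35, *Myl4* at 3.70 and 2.03, and *Myh8* at 2.60 and 1.83. *Myog* was at 1.95 without and *Tnnt2* at 2.15 with tamoxifen. *Actc1*, the cardiac and fetal actin gene, was lower at -2.88 in the untreated contrast, against the direction of its list, a call lost without KO replicate 10 or 11. In the treated contrast DESeq2 called 5 higher and 1 lower, and 3 or 4 were called higher by edgeR with a library left out.

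For each Z-disc gene called in any contrast, the 3 genes with the most similar pattern over the 14 libraries were taken by the root mean square difference of centred log2 CPM among 15388 other genes. *Actn3* was closest to *Phka1* (0.15), *Pygm* (0.15) and *Phkg1* (0.17), genes of glycogen breakdown, where its own spread was 0.72. *Myoz1* was closest to *Pkm* (0.09), of pyruvate kinase, *Pomgnt2* (0.11) and *Coa7* (0.11). *Capn3* was closest to *2610507B11Rik* (0.07), *Tln2* (0.11), of the talin of muscle, and *E2f6* (0.11). *Myoz3* was closest to *Cyb5d1* (0.16), *Zfp317* (0.17) and *Trim55* (0.18). *Actn2* was closest to *Lrrn1* (0.18), *Phlda3* (0.29) and *Adamtsl5* (0.30), and *Flnc* to *Sbno2* (0.18), *Ube2g2* (0.21) and the chaperone gene *Hspa5* (0.25). *Myoz2* was closest to *Ankrd2* (0.48), *Myh2* (0.52) and *Myom3* (0.55), with a spread of its own of 1.59.

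Promoter sequences from RefSeq (GRCm38.p6) were found for 5 of the 10 genes, and the 250 bases before the start are printed for *Actn2* and *Myoz2*, which rose in the treated KO contrast, and for *Capn3*, which fell in both KO contrasts. Capitals mark matches on either strand to the E-box, CANNTG, which muscle regulatory factors and many other factors bind, and to the MEF2 site. A CArG box was searched too. *Actn2*, on chr13:12340733-12340982, minus strand, held 3 E-boxes and no other match.
Actn2: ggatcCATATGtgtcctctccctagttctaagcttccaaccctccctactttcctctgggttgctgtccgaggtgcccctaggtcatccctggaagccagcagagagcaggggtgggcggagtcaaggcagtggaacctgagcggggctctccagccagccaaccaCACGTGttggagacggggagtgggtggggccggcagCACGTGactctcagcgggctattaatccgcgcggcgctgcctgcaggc
*Myoz2*, on chr3:123034988-123035237, minus strand, held 2 E-boxes and, before them, 1 MEF2 site.
Myoz2: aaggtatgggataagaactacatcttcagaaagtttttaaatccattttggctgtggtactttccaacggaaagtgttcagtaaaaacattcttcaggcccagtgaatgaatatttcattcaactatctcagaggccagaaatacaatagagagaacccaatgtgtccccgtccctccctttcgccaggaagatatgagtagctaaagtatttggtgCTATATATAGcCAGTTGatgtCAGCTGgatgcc
*Capn3*, on chr2:120463343-120463592, plus strand, held 1 E-box and, after it, 1 MEF2 site. The other *Capn3* promoter (chr2:120476659-120476908) held 1 E-box and 0 MEF2 sites, the 2 overlapping ones of *Flnc* held 0 matches, and the 2 of *Ldb3*, which overlap too, share the same 1 CArG box and held 0 others.
Capn3: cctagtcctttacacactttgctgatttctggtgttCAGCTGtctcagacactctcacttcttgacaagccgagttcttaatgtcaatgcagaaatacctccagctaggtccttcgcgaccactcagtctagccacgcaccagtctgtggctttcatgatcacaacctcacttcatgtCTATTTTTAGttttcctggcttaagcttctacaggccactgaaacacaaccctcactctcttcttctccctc
Of all 32841 promoters of this length, 66.2% held an E-box, 2.92% a MEF2 site and 1.47% a CArG box. A match is a string of letters and not a site in use.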

How the data were processed

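The authors deposited raw counts and RPKM for 41388 genes in 16 quadriceps libraries. Per the authors, STAR aligned the reads to the GRCm38 genome and to the transcriptome, and HTSeq counted them. The deposited counts are whole numbers without scaling. The submitters' processing notes name bcl2fastq 2.17, STAR 2.5.0c and Cufflinks 2.2.1. The deposited RPKM values were scaled by the authors to gene length and library size. No source at hand states the annotation, the overlap mode of counting, strand use or gene lengths. Each library is 1 mouse in the study's own count of mice per group.

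Groups were compared on the counts with edgeR 4.0.16 in R 4.3.3 (TMM, filterByExpr with a minimum count of 10 and a minimum total of 15, quasi-likelihood test, Benjamini-Hochberg adjustment over all genes tested, threshold 0.01), on the 2 groups compared and, for the difference of the tamoxifen effects, on all 4 groups. This code was checked on simulated counts. Fold changes are on the log2 scale with a prior count. The standard errors given are the absolute log2 fold change divided by the square root of the quasi-likelihood F statistic. As alternatives, DESeq2 1.42.0, the exact test of edgeR, RLE or library size scaling, fits without filter or with 10 or more counts in each library, limma 3.58.1 on log2(RPKM + 0.1) and log2(RPKM + 1), 1 fit of all 4 groups, all 16 libraries, a threshold of 0.05 and leaving out each library were run. The fits by column block, with the block as a term and with WT + TAM replicates 7 and 8 summed were added after seeing the data. Named genes were all 10 members in every comparison, up to 4 called genes per direction of each list in the untreated and treated KO contrasts by size (or that with the lowest p), the 3 nearest patterns of each called member, and *Mtm1*. *Myh7*, *Per3* and *Arntl* were named after their values were seen. The members and lists were chosen with earlier results of these data known. Shared sequence was counted as 50-base exon stretches found in any other gene of GENCODE M21, on either strand.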

Additional observations from a re-analysis of the deposited data

Results flagged for a closer look

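In groups of 4 libraries (all 16 used), 48 sets of values of the 10 genes and of the 2 family shares were searched for a library whose gap to its nearest neighbour was large against the range of its group (criterion of Dixon). Chance alone marks about 1 in 20 such groups, and 5 were marked here. *Tcap* in the library labelled WT replicate 1 was at 5930 CPM, against 1317 to 1793 CPM in the other WT libraries. *Myoz2* was marked in 3 groups. It was at 29.8 CPM in WT + TAM replicate 6 (others 85.1 to 90.3 CPM), at 332 CPM in *Mtm1* KO + TAM replicate 13 (others 216 to 221 CPM) and at 121 CPM in *Mtm1* KO replicate 11 (others 184 to 195 CPM). *Actn3* in the same *Mtm1* KO replicate 11 was at 4839 CPM, against 3319 to 3542 CPM in the others, so that this library held more of the fast and less of the slow gene than its group.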

How the results depend on the processing

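No paired analysis was possible because the replicate numbers run from 1 to 16 and no 2 groups share any, and no label names the litter. Counts of called members moved as follows. *Mtm1* KO against WT had 3, with 6 in DESeq2, 5 in edgeR's exact test, without filter or at a threshold of 0.05, 1 with limma on either scale, and 0 to 1 with each library left out. *Mtm1* KO + TAM against WT + TAM had 5, with 7 in DESeq2, the exact test or without filter, 4 by library size or with limma, 10 in columns 7 to 16, 2 in columns 1 to 6, 3 with WT + TAM replicates 7 and 8 summed, and 3 to 5 with each library left out. WT + TAM against WT had 0, and 1 in DESeq2. *Mtm1* KO + TAM against WT had 5, with 7 in DESeq2 or the exact test, 6 by library size, 8 without filter or at 0.05, 3 with limma on either scale or with the block as a term, 2 with all 16 libraries, 0 in columns 7 to 16, and 3 to 6 with each library left out. The cause was not tested.

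Counts over all genes moved too, given here as higher and lower. For *Mtm1* KO against WT they were 282 and 249, with 767 and 911 in DESeq2, 733 and 715 in the exact test, 573 and 523 without filter, 922 and 963 at 0.05, 718 and 106 or 661 and 95 with limma, and 109 to 213 and 73 to 150 with each library left out. For *Mtm1* KO + TAM against WT + TAM they were 498 and 481, with 973 and 1022 in DESeq2, 879 and 939 in the exact test, 653 and 590 without filter, 1657 and 217 by library size, 1503 and 192 or 1435 and 181 with limma, 1490 and 1612 in columns 7 to 16, 260 and 238 in columns 1 to 6, 305 and 234 with replicates 7 and 8 summed, and 265 to 442 and 159 to 497 with each library left out. For *Mtm1* KO + TAM against WT they were 532 and 618, with 1171 and 1204 in DESeq2, 961 and 1118 in the exact test, 1573 and 298 by library size, 857 and 935 without filter, 1412 and 1581 at 0.05, 1260 and 234 or 1104 and 232 with limma, 252 and 205 with the block, 162 and 135 with all 16 libraries, 25 and 1 in columns 7 to 16, and 244 to 592 and 287 to 654 with each library left out.

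From raw counts the mean *Actn3* share was 66.9% in *Mtm1* KO + TAM (in place of 72%), 73.3% in *Mtm1* KO (77.7%) and 93.0% in WT + TAM (94.4%). In the WT libraries of the set it ran from 91.0 to 97.5%, in place of 92.8 to 98.1%. The mean *Myoz1* share was 96.1% in WT (in place of 96.5%), 95.4% in WT + TAM (96.5%), 89.1% in *Mtm1* KO (94.3%) and 85.0% in the treated KO (92.5%), since counts carry gene length.

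Signs turned for small values. In *Mtm1* KO against WT, *Tcap* was -0.48 with all 16 libraries. In *Mtm1* KO + TAM against WT + TAM, *Tcap* and *Myot* were both 0.16 by library size and 0.15 with limma on either scale, and *Tcap* ran from -0.34 to 0.15 with a library left out. In *Mtm1* KO + TAM against *Mtm1* KO, *Actn3* was -0.0280 by library size, -0.0208 with limma on either scale, -0.14 with the block as a term, -0.00825 in columns 7 to 16 and -0.0874 to 0.20 with a library left out. *Myoz3* was 0.26 with all 16, 0.0358 with the block, 0.38 in columns 7 to 16 and -0.35 to 0.26 with a library left out. *Tcap* was -0.0879 with the block and -0.15 in columns 7 to 16. With a library left out, *Ldb3* ran from -0.00355 to 0.23 and *Myoz1* from -0.15 to 0.0807. In *Mtm1* KO + TAM against WT, *Ldb3* was 0.0112 by library size and 0.0126 with limma on either scale.

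In WT + TAM against WT with all 16 libraries, *Actn2* was -0.33, *Actn3* 0.0198, *Myoz2* -0.40 and *Myoz3* 0.10. With replicates 7 and 8 summed, *Actn2* was -0.00371 and *Myoz1* 0.00741. With a library left out, *Actn2* ran from -0.21 to 0.40, *Actn3* from -0.18 to 0.12, *Capn3* from -0.24 to 3.86e-04, *Ldb3* from -0.0403 to 0.18 and *Myoz1* from -0.0840 to 0.0674. In the interaction with all 16 libraries, *Myoz1* was 0.0520, *Myoz2* 0.91 and *Tcap* 0.37. In columns 7 to 16, *Actn2* was -0.20, *Myoz1* 0.0698 and *Flnc* -0.00286. *Myoz2* was 0.0825 with the block and 0.0821 with replicates 7 and 8 summed. By library size *Ldb3* was -0.00280 and *Flnc* -0.00438, and *Flnc* was -0.0638 and -0.0587 with limma on log2(RPKM + 0.1) and log2(RPKM + 1). With a library left out, *Actn3* ran from -0.10 to 0.28, *Ldb3* from -0.0675 to 0.18, *Myoz1* from -0.13 to 0.11, *Myoz2* from -0.76 to 0.52, *Myoz3* from -0.0747 to 0.53 and *Flnc* from -0.17 to 0.18.

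Over all settings, *Actn3*, *Capn3*, *Myoz1*, *Myoz3*, *Ldb3*, *Actn2*, *Myoz2* and *Flnc* kept their sign in both KO contrasts. In the untreated contrast, with 3 libraries per group, 3 members were called, and 0 to 1 with each library left out.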
